A study of Homo sapiens with 4 samples.

Results

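Cell cycle and DNA replication genes were examined in 2 liver tumour cell lines after knockdown of COP1, an E3 ubiquitin ligase that marks selected proteins for degradation. The set held 46 genes, listed by symbol, among the 46427 gene numbers of the tables. It comprised 7 G1 cyclins and cyclin-dependent kinases (CDKs), 4 CDK inhibitors, 6 transcriptional regulators, 9 replication licensing and fork genes, 4 genes of nucleotide supply, 6 genes of the G2/M transition, 8 mitotic genes and 2 proliferation markers. The gene name column of the deposited tables was empty, so each symbol was matched to its NCBI Gene number with the RefSeq gene table for GRCh38.p14, and 46 of 46 were found. The grouping by role was made for this description.

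The study sequenced poly(A) RNA of Huh7 and HepG2, established lines labelled as hepatocellular carcinoma. Each line was transfected by Lipofectamine either with a non-targeting control (NC-siRNA, genotype label WT) or with a COP1-siRNA (genotype label COP1 Knockdown), both at 20 nM, and cells were collected 48 h later. Below, control and knockdown stand for these libraries, and a pair of TPM values gives the control first. There was 1 library for each line and siRNA, 4 in all, with the same batch label. Knockdown was transient, with 1 siRNA against COP1, and no untransfected cells were analysed here. With 1 library per condition no difference between libraries had a replicate check, so all differences below are descriptions without a test.

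Passage through G1 is driven by cyclin D with CDK4 or CDK6 and then by cyclin E with CDK2, which phosphorylate the retinoblastoma protein RB1 and free E2F factors to switch on replication genes. Replication origins are licensed by loading of the MCM2 to MCM7 helicase, and a later wave of genes, under B-MYB and FOXM1, makes the cyclins and kinases of mitosis. Transcripts of these genes are commonly used as a readout of how many cells in a culture are dividing.

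The targeted transcript, COP1, was at 19.7 TPM (transcripts per 1000000, scaled within a library) in the Huh7 control and at 6.18 TPM in its knockdown, 31.4% of the control. In HepG2 it was at 26.9 and 16.1 TPM, 59.9% of the control. Per-base coverage for a given FPKM, which gives relative depth, was 1.13 times the control in the Huh7 COP1-siRNA library and 1.27 times in the HepG2 one. The 9 markers of liver cells were all at 6.97 TPM or more in every library. PTPRC and CD3E of leukocytes were listed at 0 in all 4 libraries, CDH5 and VWF of endothelium at 0.114 TPM or less, and COL1A1 of fibroblasts at 2.47 TPM or less. Of the other non-liver markers, LUM was at 121 TPM in both Huh7 libraries and PECAM1 at 5.08 and 7.36 TPM there.

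No member passed 2-fold in either line after COP1 knockdown. The 46 genes together gave 5606 TPM in the Huh7 control and 5409 TPM in the knockdown, and 6840 and 6574 TPM in HepG2, so that their sum stood at 96.5% and 96.1% of the control. All 46 were at 1 TPM or more in all 4 libraries, from 4.42 TPM for CDK6 to 386 TPM for PCNA in the Huh7 control. In a culture as a whole, fewer cells in a cycle phase and less RNA per cell cannot be told apart.

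The median difference of the members, as log2 of (TPM + 1) with COP1-siRNA over that with NC-siRNA, was -0.05 in Huh7 and -0.03 in HepG2. Over the 13000 genes tested in Huh7 and the 14456 tested in HepG2, those with at least 1 TPM in a library of the line, the median was 0.00 and -0.01. Member values spanned -0.60 to 0.23 in Huh7, and -0.47 to 0.46 in HepG2. Of all genes tested in Huh7, 0.638% rose and 0.446% fell by 2-fold or more, and in HepG2 0.54% and 0.394%.

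At 1.5-fold, 1 member fell in Huh7 (FOXM1) and 0 rose, against 2.68% and 2.8% of all genes. In HepG2, 0 members fell or rose by 1.5-fold, against 1.87% and 2.56%. At 1.2-fold, FOXM1 and RRM2 fell in Huh7, 2 of 46 against 14.1% of all genes, and 0 rose against 13.3%. In HepG2, 5 members fell by 1.2-fold (CCNE2, RRM2, FOXM1, CCNE1 and CCNB1) and 2 rose (CCND1 and CDT1), against 12.5% and 11.1%. Counted over both lines with TPM as deposited, 39 of 46 members stayed within 1.2-fold in each line. In both lines the members past 1.2-fold were thus a share near or below that of all genes tested, many of them at low TPM. Among genes with a mean of at least 10 TPM, 1020 of 8290 fell by 1.2-fold in Huh7 and 679 rose. In HepG2, 744 of 8350 such genes fell and 621 rose, so there the share of members that fell was slightly above that of these genes.

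**Figure D1:**
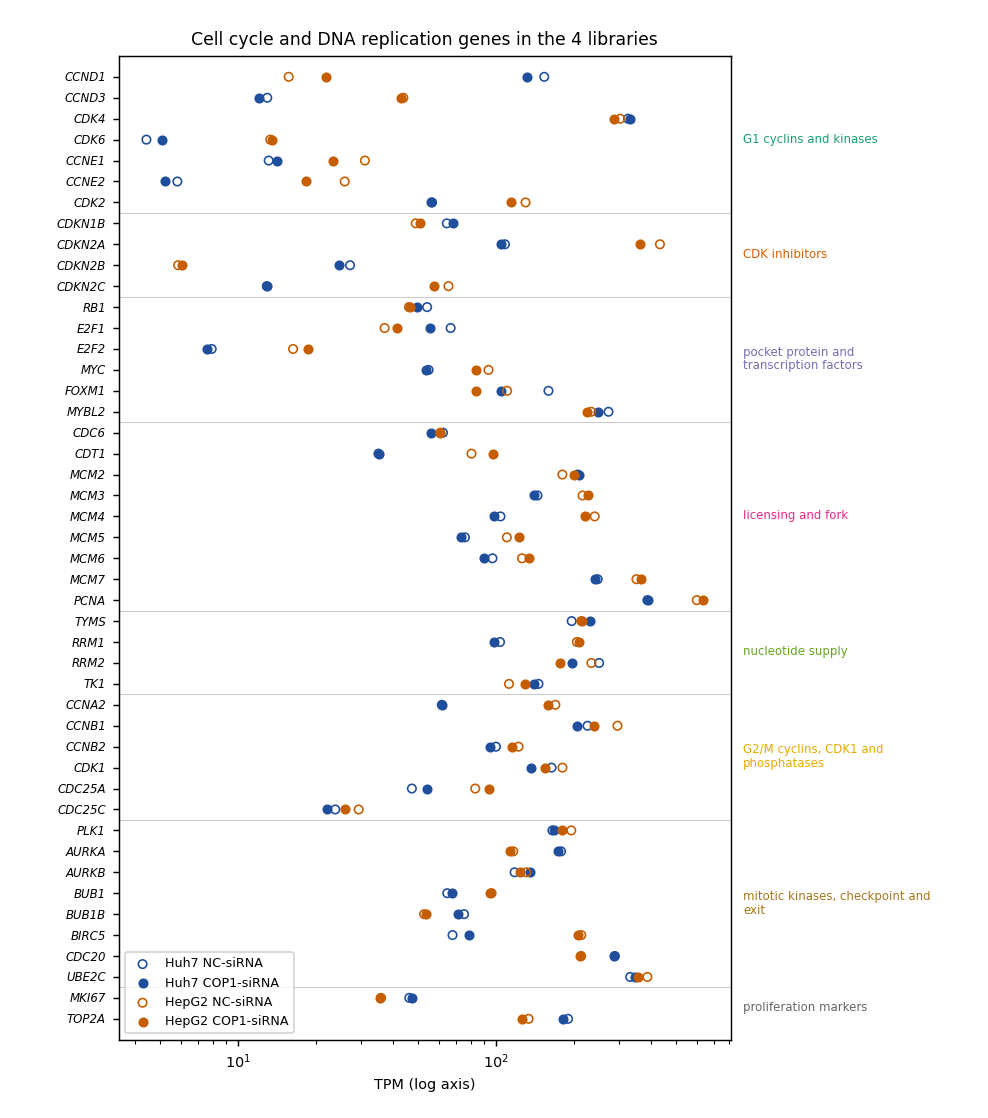
Levels of the 46 members, in TPM on a log axis, in the 4 libraries, grouped by role. Each point is 1 library. For most members the points of the NC-siRNA and COP1-siRNA libraries of a line lie on top of each other, and the gap between lines is wider than the gap between siRNAs for genes such as CCND1.

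**Figure D2:**
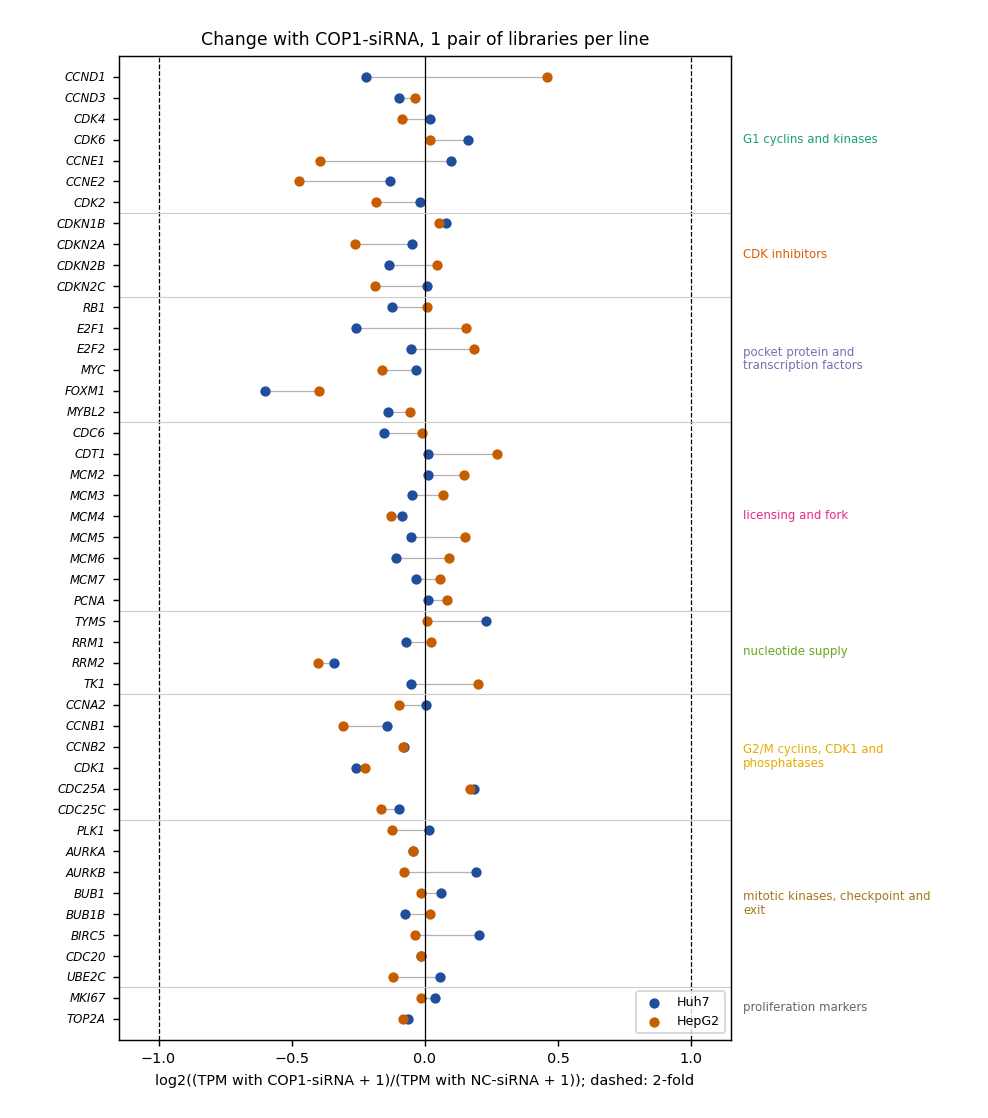
Log2 of (TPM + 1) with COP1-siRNA over NC-siRNA for each member in Huh7 and HepG2, 1 library per condition, with dashed lines at 2-fold and a grey bar joining the lines' values. No point reaches 2-fold, and 39 members lie within 1.2-fold in both lines.

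Among the G1 genes, the D-type cyclin CCND1 differed in direction between the lines. Cyclin D1 activates CDK4 and CDK6 and links growth signals to the cycle. CCND1 was at 154 and 132 TPM in Huh7 and at 15.7 and 22 TPM in HepG2, log2 differences of -0.22 and 0.46. It had the highest difference of any member in HepG2, where its level was much lower than in Huh7. CCND3, another D-type cyclin, was at 13 and 12.1 TPM in Huh7 and at 43.8 and 42.7 TPM in HepG2, and had the lowest coverage of the set, 3.23 reads per base in the Huh7 control. CCND2, a D-type cyclin outside the set that was looked up after its values were seen, was listed at 0 in both Huh7 libraries and was at 8.51 and 10.9 TPM in HepG2, a log2 difference of 0.32.

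CDK4, the main kinase partner of cyclin D by level here, was at 325 and 329 TPM in Huh7 and at 303 and 286 TPM in HepG2. Its 4 libraries lay within a narrow band. CDK6, its close relative, was low in Huh7, at 4.42 and 5.07 TPM, and at 13.3 and 13.5 TPM in HepG2. Both CDK6 and CDK4 stayed within 1.2-fold.

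The E-type cyclins, which activate CDK2 at the entry into S phase, were both below the control in HepG2. CCNE1 was at 31.1 and 23.4 TPM there, a log2 difference of -0.39, and CCNE2 at 25.9 and 18.4 TPM, with -0.47. In Huh7, where both were much lower, CCNE1 was at 13.2 and 14.2 TPM and CCNE2 at 5.83 and 5.24 TPM. CCNE2 was thus lower in both lines and CCNE1 in HepG2 only, although the difference between lines was not tested. Their kinase CDK2 was at 56.5 and 55.8 TPM in Huh7 and at 130 and 114 TPM in HepG2. INTS8 and NDUFAF6 overlap CCNE2 on the opposite strand. INTS8 was at 23.2 and 20.4 TPM in Huh7 and at 41.9 and 32.1 TPM in HepG2. NDUFAF6 was at 15.6 and 14.8 TPM and at 20.8 and 18.7 TPM. Both were thus lower together with CCNE2 in both lines. The strand setting of the counting is not given, and whether reads are shared was not tested.

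With TPM as deposited, the 4 CDK inhibitors stayed within 1.2-fold. CDKN1B encodes p27, which holds cyclin E with CDK2 inactive in resting cells, and was at 64.5 and 68.2 TPM in Huh7 and at 48.9 and 50.8 TPM in HepG2. CDKN2C, which encodes the CDK4 and CDK6 inhibitor p18, was at 12.9 and 13 TPM in Huh7 and at 65.5 and 57.3 TPM in HepG2. CDKN2B, which encodes p15 of the same family, was at 27.2 and 24.7 TPM in Huh7 and at 5.87 and 6.09 TPM in HepG2. None of these pairs was far from its control. CDKN2A was at 108 and 105 TPM in Huh7 and at 432 and 360 TPM in HepG2, where the log2 difference was -0.26. Over the alternative settings the HepG2 difference spanned -0.28 to -0.23, at its lower end past 1.2-fold. The CDKN2A value joins transcripts for p16 and for p14ARF, which share exons, and CDKN2A and CDKN2B are neighbours of similar sequence, so reads may be split between them.

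FOXM1 had the largest difference of the set in Huh7 and fell by 1.2-fold or more in both lines. FOXM1 is a forkhead transcription factor that drives genes of G2 and mitosis. In Huh7 it was at 160 TPM in the control and 105 TPM in the knockdown, 65.7% of the control. In HepG2 it was at 110 and 83.6 TPM, 75.7% of the control. The log2 differences were -0.60 and -0.40, and over the alternative settings they spanned -0.61 to -0.54 in Huh7, and -0.41 to -0.36 in HepG2.

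The FOXM1 gene lies on chromosome 12, minus strand, from 2857680 to 2877174 on GRCh38. RHNO1, a gene of the DNA damage response, overlaps it on the opposite strand, and so does ITFG2. RHNO1 was at 52.2 and 56.2 TPM in Huh7 and at 65.4 and 63 TPM in HepG2, and ITFG2 at 7.99 and 8.01 TPM in Huh7 and at 11.1 and 12.7 TPM in HepG2. Neither was lower together with FOXM1 in both lines. The kit marked strand, but the strand setting of the counting is not given in the sources used here.

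In earlier work on these same libraries the 7 bases AGCAGTC stood out in the 3′ UTRs of the genes that fell most in both lines, so the members were searched for it. It occurred in the annotated 3′ UTR of 2 of 46 members, 4.35%, against 9.51% of 10314 genes tested in both lines with an annotated 3′ UTR (GENCODE 29, 1 transcript per gene). These were FOXM1, with 2 copies, and CDK6, with 1. The FOXM1 copies stand at positions 143 and 294 of a 3′ UTR of 955 bases (ENST00000342628.6). They are printed on the transcript strand with the match in capitals, because they belong to the member with the largest fall in Huh7 and on average over the lines (in HepG2, CCNE2 and RRM2 were lower):
FOXM1 position 143, chr12:2858479-2858505, minus strand, GRCh38: atgcaaaagtAGCAGTCacaccctagc
FOXM1 position 294, chr12:2858328-2858354, minus strand, GRCh38: ttctctgcccAGCAGTCtcttaccttc
The motif came from these data, and CDK6, which also holds it, had log2 differences of 0.16 (Huh7) and 0.02 (HepG2). A match describes the sequence only.

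Several genes known as targets of FOXM1 are given beside it, as examples chosen after their values were seen. CCNB1, the cyclin B1 gene, was at 226 and 205 TPM in Huh7 and at 296 and 239 TPM in HepG2, log2 differences of -0.14 and -0.31. PLK1, a kinase of mitotic entry, was at 165 and 167 TPM and at 196 and 179 TPM. AURKB, the kinase of the chromosomal passenger complex, was at 118 and 135 TPM and at 131 and 124 TPM. CCNB1 was therefore lower in both lines, while PLK1 and AURKB were at or above the control in Huh7 and below it in HepG2. BIRC5 (survivin), of the same complex as AURKB, was at 67.9 and 78.4 TPM in Huh7 and at 214 and 209 TPM in HepG2. Outside the set, the phosphatase gene CDC25B had log2 differences of -0.21 and -0.16 and the kinetochore gene CENPF -0.14 and -0.17. The examples thus had no common direction in Huh7. In HepG2 all of them were below the control with TPM as deposited, although BIRC5 (-0.04) reached 0.0003 under an alternative setting.

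The other regulators of transcription in the set lay within 1.2-fold with TPM as deposited. RB1, which restrains E2F factors, was at 54.1 and 49.5 TPM in Huh7 and at 46 and 46.2 TPM in HepG2. MYC, a growth-promoting transcription factor, was at 54.8 and 53.6 TPM in Huh7 and at 93.5 and 83.5 TPM in HepG2. MYBL2, which encodes B-MYB, was at 273 and 248 TPM and at 234 and 225 TPM. All 3 were level or slightly lower. Of the activating E2F genes, E2F1 was at 66.7 and 55.7 TPM in Huh7 but 37.0 and 41.3 TPM in HepG2. E2F2 was at 7.92 and 7.6 TPM but 16.4 and 18.7 TPM, and its Huh7 difference of -0.05 changed sign under an alternative setting. E2F3, outside the set and looked up after its values were seen, was lower in both lines, with log2 differences of -0.34 and -0.26. The activating E2F genes thus had no common pattern.

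The licensing and fork genes were close to the control as a group. In Huh7 their log2 differences spanned -0.15 to 0.01 with a median of -0.05, and in HepG2 -0.13 to 0.27 with a median of 0.08. Of the 6 MCM genes, 5 were below the control in Huh7 and 5 above it in HepG2, but in Huh7 the 5 became 2 with FPKM in place of TPM and 6 with depth-scaled coverage, so that their direction there depends on the scaling. None differed by more than 0.15 in either line. MCM2 was at 207 and 209 TPM in Huh7 and at 181 and 200 TPM in HepG2.

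CDT1, the factor that loads MCM2 to MCM7 onto origins, was at 35 and 35.4 TPM in Huh7 and at 80.4 and 97.1 TPM in HepG2. Its log2 difference of 0.27 was the highest of this group. CDC6, its partner in loading, was at 62.3 and 55.9 TPM and at 60.8 and 60.5 TPM. PCNA, the sliding clamp of the replication fork and a marker of proliferation, was the most abundant member in all libraries, at 386 and 389 TPM in Huh7 and at 600 and 635 TPM in HepG2. Neither line thus showed PCNA below its control.

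RRM2 was the second member that fell by 1.2-fold or more in both lines. It encodes the small subunit of ribonucleotide reductase, which makes the deoxynucleotides of S phase. RRM2 was at 251 and 198 TPM in Huh7 and at 234 and 177 TPM in HepG2, log2 differences of -0.34 and -0.40. Over the alternative settings these spanned -0.35 to -0.28, and -0.42 to -0.36. The partner subunit gene RRM1 was at 104 and 98.6 TPM and at 206 and 209 TPM, so only the RRM2 transcript of the enzyme passed 1.2-fold.

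TYMS, which encodes thymidylate synthase, was at 196 and 230 TPM in Huh7 and at 214 and 216 TPM in HepG2. TK1, the thymidine kinase of the salvage pathway, was at 146 and 141 TPM and at 112 and 129 TPM. The nucleotide genes therefore had no common direction, with TYMS highest of all members in Huh7 at 0.23 and RRM2 among the lowest.

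Of the 6 genes of the G2/M transition, 4 were below the control in Huh7 and 5 in HepG2, with 4 or 5 in Huh7 under each scaling. CDK1, the kinase of mitotic entry, was at 164 and 137 TPM in Huh7 and at 181 and 155 TPM in HepG2, log2 differences of -0.26 and -0.22. CCNB2 was at 99.95 and 94.6 TPM and at 122 and 115 TPM, and CDC25C, a phosphatase that activates CDK1, at 23.8 and 22.2 TPM and at 29.4 and 26.1 TPM. CDC25A, a phosphatase that acts on CDK2 as well, was above the control in both lines, at 47.2 and 53.8 TPM in Huh7 and at 83.1 and 93.5 TPM in HepG2. CDC25A had the highest mean difference over the lines of any member with the same direction in both. CCNA2, the cyclin of S phase and G2, was at 61.7 and 61.9 TPM and at 170 and 159 TPM.

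The log2 differences of the 8 mitotic genes spanned -0.07 to 0.20 in Huh7, and -0.12 to 0.02 in HepG2. CDC20, an activator of the anaphase-promoting complex, was at 289 and 286 TPM in Huh7 and at 214 and 211 TPM in HepG2. UBE2C, the ubiquitin-conjugating enzyme of that complex, was at 331 and 345 TPM and at 386 and 355 TPM. AURKA, a kinase of the centrosome, and the spindle checkpoint genes BUB1 and BUB1B lay between -0.07 and 0.06 in both lines. In HepG2, 7 of the 8 were below 0 with TPM as deposited but 4 of 8 with upper-quartile scaling.

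MKI67, which encodes the Ki-67 antigen of dividing cells, was at 46.1 and 47.4 TPM in Huh7 and at 35.9 and 35.4 TPM in HepG2. TOP2A, a topoisomerase used as a marker of S phase and G2, was at 190 and 182 TPM and at 134 and 126 TPM. The log2 differences of both markers thus lay between -0.08 and 0.04.

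**Figure D3:**
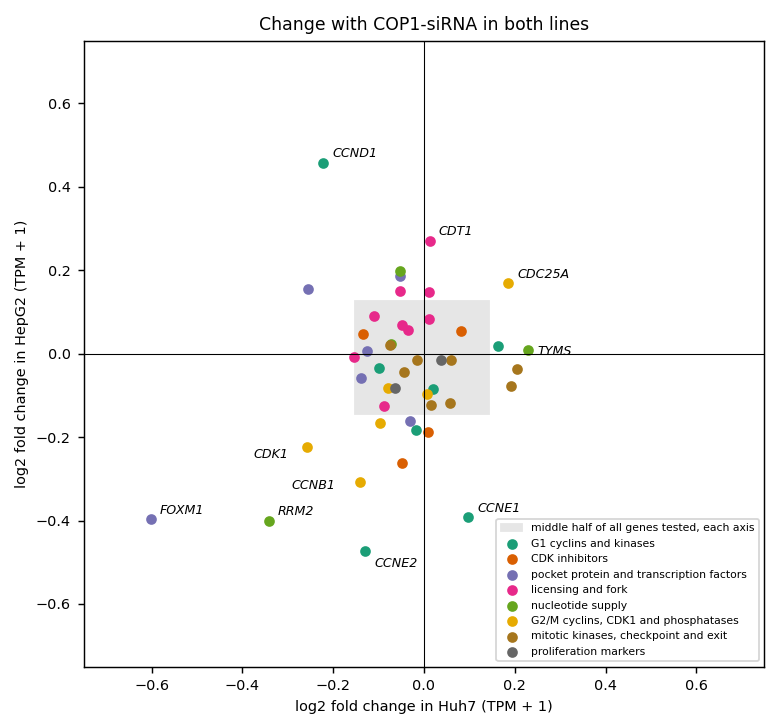
Log2 of (TPM + 1) with COP1-siRNA over NC-siRNA in Huh7 (horizontal) and HepG2 (vertical) for the 46 members, coloured by role, with the middle 50% of all genes on each axis shaded. FOXM1 and RRM2 lie furthest toward the lower left, CCND1 lies alone at the upper left, and 22 members have opposite signs in the lines.

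Set side by side, the lines gave 7 members above 0 in both, 17 below 0 in both and 22 with opposite signs. Among 11970 genes with a value in each line, 29.2% were above and 31% below 0 in both. By 1.2-fold or more in both lines, 2 members fell (FOXM1 and RRM2) against 4.44% of all genes, and 0 rose against 2.92%. The share that fell in both was therefore near that of all genes. The control libraries of the lines are separate, so no library enters both differences. These counts move with the scaling: 27 of 46 members were above 0 in Huh7 with FPKM in place of TPM and 17 with TPM, while the median of all genes moved from 0.00 to 0.05. In HepG2, 25 of 46 were above 0 with upper-quartile scaling and 19 with TPM as deposited.

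Differences between the lines were larger than those between the siRNAs. With NC-siRNA, the median member was at -0.29 on the log2 scale in Huh7 relative to HepG2, while the median of the 15055 genes tested was at -0.37. By 2-fold or more, 2 members were higher in Huh7 and 11 lower, against 14.7% and 27.9% of all genes. By 4-fold or more, 2 were higher and 1 lower, against 5.87% and 8.71%. With median-of-ratios scaling the medians became 0.06 for members and -0.05 for all genes, and with upper-quartile scaling -0.09 and -0.19. Among genes with a mean of at least 10 TPM the order turned, with -0.29 for members and -0.21 for all genes, so no side of the other genes can be given for the members.

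The 3 members past 4-fold were regulators of the G1 kinases, and 1 of them, CDKN2C, came inside 4-fold with median-of-ratios scaling (-1.92). CCND1 was 9.78-fold higher in Huh7 than in HepG2 with NC-siRNA, at 154 against 15.7 TPM. CDKN2B was 4.64-fold higher in Huh7, at 27.2 against 5.87 TPM, and CDKN2C 5.06-fold higher in HepG2, at 65.5 against 12.9 TPM. CDKN2A and CCNE2 were just inside 4-fold on the log2(TPM + 1) scale, at -1.98 each. These directions held under each scaling. CCND1 and CDKN2B were thus higher in Huh7 than in HepG2, and CCNE2, CDKN2A and CDKN2C higher in HepG2. Within each line CDKN2A was the most abundant of the 3 CDKN2 members.

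Of the G1 cyclins and kinases 5 of 7 were at least 2-fold lower in Huh7 with TPM as deposited, against 27.9% of all genes tested. With median-of-ratios scaling they were 3 of 7, against 3100 of 15055 genes. With upper-quartile scaling they were 3 of 7 as well, against 3526 of 15055. The licensing and fork genes were lower in Huh7 for 7 of 9 under each of these scalings. Most genes were lower in Huh7 as well, 9478 of the 15055 tested with TPM as deposited, so there the 7 of 9 is no trait particular to this group. With median-of-ratios scaling the median was -0.05 for all genes and -0.185 for these 9, a difference that was not tested. All 6 G2/M genes were lower in Huh7 with TPM as deposited, but 3 of 6 with median-of-ratios scaling, so that no direction can be given for them. MKI67 and TOP2A were both higher in Huh7, at 0.36 and 0.51. With COP1-siRNA the pattern was similar, with a member median of -0.22, 2 of 46 members at least 2-fold higher and 12 lower in Huh7. Of the 15126 genes tested there, 2121 were at least 2-fold higher and 3937 lower, with a median of -0.35. The share of members that were lower was thus near that of all genes.

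**Figure D4:**
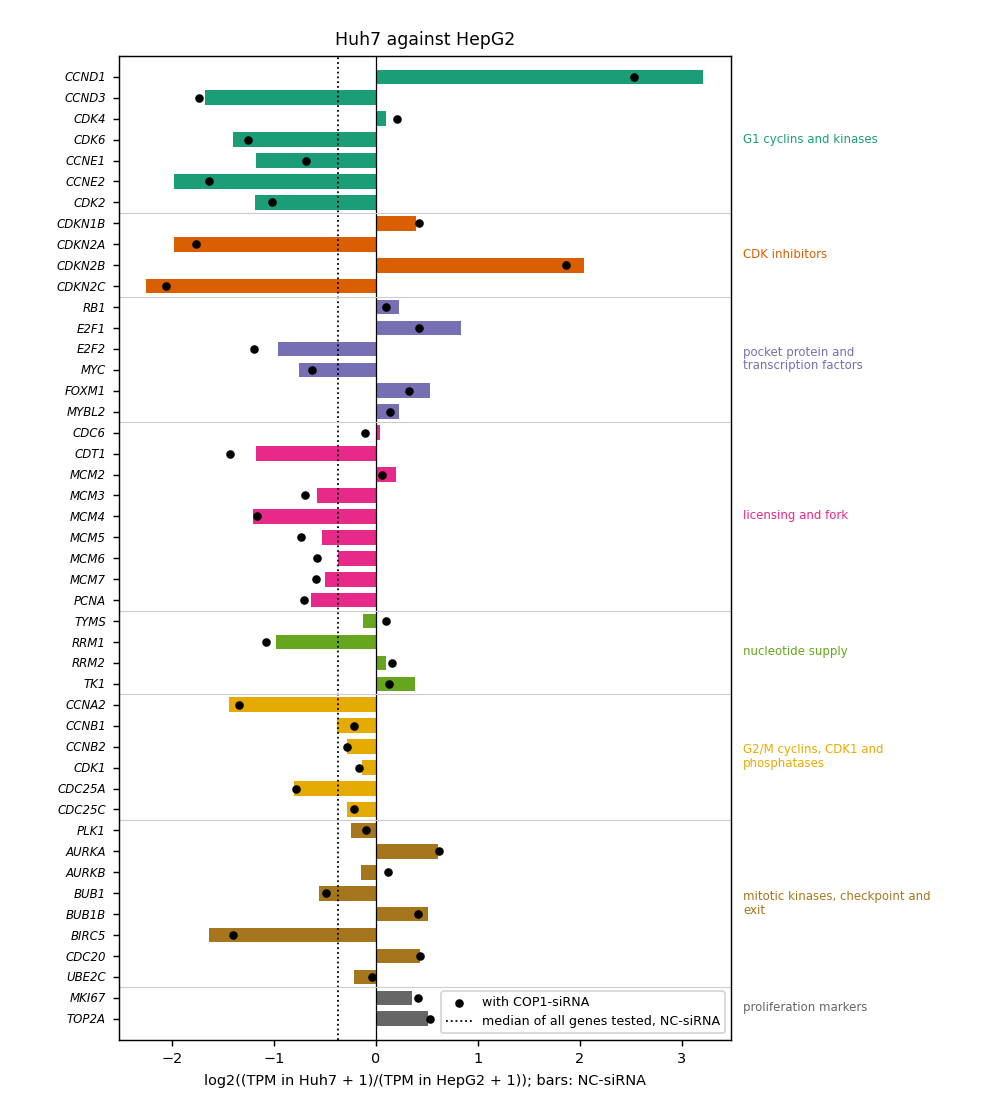
Log2 of (TPM + 1) in Huh7 over HepG2 for each member, with bars for the control libraries, points for the knockdown libraries and a dotted line at the median of all genes tested in the controls (-0.37). The bars of CCND1 and CDKN2B pass 2 toward Huh7 and that of CDKN2C passes -2 toward HepG2.

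Promoter sequence separates waves of cell cycle genes, since E2F sites are typical of S phase genes and the cell cycle genes homology region (CHR), with the letters TTTGAA, of mitotic genes. RefSeq promoter windows of 300 bases on GRCh38.p14, from 250 before to 50 after the start, were at hand for 36 of 46 members. Windows for CCND1, CCNE2, CDK2, MYC, FOXM1, MCM4, MCM5, AURKA, BIRC5 and UBE2C were not. Both strands were searched for the E2F letters TTTCCCGC, TTTCGCGC, TTTGCCGC or TTTGGCGC, for the CHR letters and for CCAAT. The letters TTTAAA, a variant of the CHR, were counted separately.

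The E2F letters stood in 12 of 36 members, 33.3%, against 3.99% of 27305 genes with a window. They were in CDC6, CDT1, MCM2, MCM3, MCM6, MCM7, PCNA, TYMS, E2F1, E2F2, CDC25A and CDK1, mainly genes of S phase. The CHR letters stood in 9 members, 25% against 18.2% of genes. These were BUB1B, CCNB2, CDC20, CDC25C, CDK1, MKI67, PLK1, RRM1 and TOP2A, mainly mitotic. CDK1 held both elements. The CHR variant was in 8 members, 22.2% against 14.5%, and CCAAT in 24, 66.7% against 39.7%. These shares are set against all genes with a window, expressed or not, while all members were expressed. Of the 1090 genes with E2F letters 682 were tested in Huh7, and of the 4961 with CHR letters 1406.

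Stretches of 100 bases before the start of genes from each class are printed 5′ to 3′ on the strand of the gene, with matches to E2F, CHR and CCAAT in capitals (the CHR variant is not marked), to show an S phase promoter beside a mitotic one:
CDT1, chr16:88803689-88803788, plus strand: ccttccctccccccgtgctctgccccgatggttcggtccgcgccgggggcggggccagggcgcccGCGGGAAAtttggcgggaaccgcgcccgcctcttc
PCNA, chr20:5126623-5126722, minus strand: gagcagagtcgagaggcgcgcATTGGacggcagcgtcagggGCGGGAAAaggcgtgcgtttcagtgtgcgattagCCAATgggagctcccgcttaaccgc
PLK1, chr16:23678789-23678888, plus strand: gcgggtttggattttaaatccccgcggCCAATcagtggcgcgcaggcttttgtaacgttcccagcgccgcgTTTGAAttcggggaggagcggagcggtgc
CCNB2, chr15:59105046-59105145, plus strand: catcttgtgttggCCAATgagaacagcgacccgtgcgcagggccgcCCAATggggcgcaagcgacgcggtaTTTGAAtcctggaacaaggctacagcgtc
The PCNA stretch belongs to 1 of its annotated starts. In CDT1 and PCNA the capitals GCGGGAAA are the E2F letters read on the other strand, and ATTGG is CCAAT read on the other strand. In PLK1 and CCNB2 a CCAAT stands upstream of the CHR letters.

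In HepG2, 10 of the 12 members with E2F letters were above the control, with a median log2 difference of 0.09, and 7 of the 9 with the CHR letters were below it, with a median of -0.08. With upper-quartile scaling these counts became 11 of 12 and 5 of 9, and with FPKM 9 of 12 and 7 of 9. Over all genes tested in HepG2 the median was -0.01 with E2F letters and -0.02 with CHR letters. In Huh7, 7 of the 12 and 7 of the 9 were below the control, with medians of -0.04 and -0.07. With FPKM these Huh7 counts became 4 of 12 and 6 of 9. Of all genes tested, 50.1% were below 0 in Huh7 and 51.7% in HepG2. The 12 include CDC6, CDT1, MCM2, MCM3, MCM6, MCM7 and PCNA, already described among the licensing and fork genes, so the 2 descriptions share genes. The members with E2F letters in HepG2 lay between -0.22 for CDK1 and 0.27 for CDT1, so these are small differences around the control. A match describes the letters of the window, and no match says only that these letters were absent from it.

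A wider list of 121 other cell cycle genes was described in the same way. It held origin and fork factors, further cyclins and checkpoint regulators, E2F and DREAM genes, and spindle and kinetochore genes, and 119 were tested in Huh7 and 121 in HepG2. None passed 2-fold in either line on the log2(TPM + 1) scale, and with a pseudocount of 0.1 there was 1 that did, CDKN1C in HepG2. Their median was -0.03 in Huh7 and -0.08 in HepG2, with 70 of 119 (58.8%) and 85 of 121 (70.2%) below 0, against 50.1% and 51.7% of all genes tested. With FPKM the Huh7 share was 44.5% against 40.2% of all genes, and in HepG2 76.9% against 55.1%. In the part of the list on origins, forks and DNA synthesis 33 of 48 were below 0 in Huh7 and 36 of 48 in HepG2, with medians of -0.08 and -0.12. In HepG2 the median of these 48 genes was thus below 0 and that of the 9 licensing and fork members above it, with 12 of the 48 above 0.

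CDKN1A, which encodes the p53-induced inhibitor p21, was at 12.3 and 12.9 TPM in Huh7 and at 38.9 and 42.5 TPM in HepG2, log2 differences of 0.07 and 0.12. The genes that follow were chosen after their values were seen. SKP2, which encodes the F-box protein that targets p27 for degradation, had the highest difference of the wider list in Huh7, with 123 TPM in the control and 185 TPM with COP1-siRNA, and was at 93.1 and 112 TPM in HepG2. CDKN1C, which encodes p57, was the single gene past 1.5-fold on the log2(TPM + 1) scale. It was at 2.87 and 1.29 TPM in HepG2, 44.9% of the control, and under 1 TPM in Huh7. In all, 8 of the 119 genes fell by 1.2-fold or more in both lines, as FOXM1 and RRM2 did, and 1 rose (SKP2), beside the 4.44% and 2.92% of all genes given above. The 8, named as a description, were MCM10, POLA1, DTYMK and SLBP of DNA replication, WEE1, E2F5, LIN52 and CENPE. MCM10, a replication initiation factor, was at 37.7 and 26.4 TPM in Huh7 and at 46.1 and 35.6 TPM in HepG2. SLBP, which binds histone messages, was at 108 and 82.6 TPM and at 118 and 87.6 TPM, and WEE1, a kinase that restrains CDK1, at 17.9 and 12.7 TPM and at 23.6 and 19 TPM.

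Within the wider list AGCAGTC occurred in the 3′ UTR of 14 of 121 genes, 11.6%, against 9.51% of the genes tested in both lines. Of these 14, 12 were below 0 in Huh7 and 12 in HepG2, with medians of -0.11 and -0.18, against -0.02 and -0.08 for the 107 genes without it. Of those 107, 59 were below 0 in Huh7 and 73 in HepG2, so most of the list without the motif was below 0 as well. The 107 include CCND2 and CDKN1C, which were not tested in Huh7. Of the 8 genes that fell in both lines, SLBP and DTYMK were among the 14, with 1 copy each. As the motif was taken from these libraries, the counts are a description and no support for it.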

How the data were processed

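Total RNA of 4 cultures was made into stranded poly(A) libraries. Per the labels, GRCh38 was the genome build, and the submitters' processing notes name FastQC 0.11.7, Trimmomatic 0.38, HISAT2 2.1.0, StringTie 2.1.3b and edgeR. The annotation and the strand setting of the counting are not given in the sources used here. The TPM values deposited by the authors are scaled within each library to 1000000. The FPKM values deposited by the authors are per length and sequencing depth, and the coverage (signal) deposited by the authors is the mean number of reads per base. Read totals were not given, so depth is known only as a ratio between libraries, and no counting interval could be made.

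TPM was summed per gene number. The difference was log2 of (TPM + 1) with COP1-siRNA over that with NC-siRNA, which understates changes of low genes. A gene was tested in a line when at least 1 of its libraries reached 1 TPM, and called past 2-fold, with 1.2-fold, chosen after the values were seen, to describe smaller differences. Values in every library were given for members past 1.5-fold in either line, the 5 with the largest mean rise and the 5 with the largest mean fall among those with 1 sign in both lines, members past 4-fold between the lines, and MKI67, PCNA, CCND1, CDK4, CDKN1B, RB1 and MYC. Other members were given by value or range. Of the wider list the rule named genes past 2-fold and CDKN1A. Members, lists, motifs and alternatives were chosen with earlier results of these data known.

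No test was run, since each condition had 1 library. Alternatives were a pseudocount of 0.1, FPKM, depth-scaled coverage, median-of-ratios and upper-quartile scaling, no minimum TPM, a minimum of 5 TPM, a 1.5-fold threshold and, added after the values were seen, a mean of at least 10 TPM over the 4 libraries. Python 3.11.15 with numpy 2.4.6, pandas 2.3.3 and matplotlib 3.10.9 was used. The computation of differences was run on simulated data with changes of 4-fold, which does not bear on differences near 1.2-fold. Promoters came from RefSeq on GRCh38.p14 and 3′ UTRs from GENCODE 29 on GRCh38.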

Additional observations from a re-analysis of the deposited data

How the results depend on the processing

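Of 94 summary values computed under the alternatives, 87 stayed within 1.5 times the reported count or within 0.1 (log2) of the reported median, and 7 moved further. Within these bounds the Huh7 median of -0.05 became 0.01 with FPKM, and the 17 members below 0 in both lines became 13 with FPKM or upper-quartile scaling. The number of members above 0 in both lines, 7 as reported, was 11 with FPKM in place of TPM and 11 with upper-quartile scaling. Between the lines, the members at least 2-fold lower in Huh7, 11 as reported, were 7 with median-of-ratios scaling, and the median of -0.29 became 0.0555 with median-of-ratios and -0.0915 with upper-quartile scaling. With a 1.5-fold threshold, 1 member was lower in Huh7 after knockdown, against 0 at 2-fold, and 4 were higher in Huh7 than in HepG2, against 2. The scaling and the threshold account for these shifts by construction. Of 734 values of single members under alternatives, 25 changed sign, and none of FOXM1, RRM2, CCND1, CCNE1, CCNE2, CCNB1 and CDT1 was among them. Members near 1.2-fold crossed it under alternatives. CDKN2A in HepG2 reached -0.28, E2F1 and CDK1 in Huh7 -0.27 each and TYMS in Huh7 0.29, all past 1.2-fold. CDT1 in HepG2 came down to 0.25, inside 1.2-fold, so the count of members within 1.2-fold depends on the setting. With no minimum TPM the number of genes tested was 46427, most at 0. The labels give no replicate numbers to pair, and a fit with the 2 lines as blocks was not run. Limits of depth: read totals are unknown, so the error of low members such as CDK6 and CCND3 cannot be given, and a difference of about 1.2-fold between single libraries has no replicate spread to be set against.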
